A study of Arabidopsis thaliana with 3 samples.

Results

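The SWEET genes encode small membrane proteins that let sugars pass along their concentration gradient. They were followed in plants of Arabidopsis thaliana that lack functional HY5, a bZIP transcription factor of light signalling, and had been moved to the cold. Genes were taken by a symbol beginning with SWEET in the annotation of the arrays. That rule gave 10 of the 7234 named loci. Of these, 9 encode SWEET transporters, and the remaining locus, SWEETIE (AT1G67140), shares only the opening letters of the name. SAG29 (AT5G13170) is SWEET15 by its synonym in the RefSeq gene table and was missed by the rule, so it is given apart from the 9. The RefSeq table lists 17 SWEET transporters, and the 7 without a named feature, SWEET2, SWEET3, SWEET5, SWEET6, SWEET10, SWEET12 and SWEET14, were not analysed here.

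Each of 3 two-colour arrays carried hy5-1 RNA labelled with Cy5 and RNA of the wild type Landsberg erecta (Ler) labelled with Cy3. Plants of both genotypes were 3 weeks old, had grown in pots at 22 °C under a day of 16 h light and 8 h dark, and had spent 1 further day at 4 °C, so no warm plants were compared. The labels number the arrays as biological replicates and name no organ, and hy5-1 is a single mutant allele. Values are taken as log2 ratios of hy5-1 over Ler. The deposited table states neither the base nor the numerator. Every fold change below rests on the log2 reading. The reading of the sign, from the dyes, is likely at most, since the sample titles put Ler first. Under the opposite reading every direction below would turn. Gene names rest on an assignment of features to table rows that was found from these values and is stated in no file. Because hy5-1 carried the same dye on all 3 arrays, a dye effect of a probe and an effect of the genotype cannot be told apart.

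In Arabidopsis the SWEET family falls into 4 clades. Members of clades I and II mainly carry hexoses across the plasma membrane, those of clade III mainly sucrose across the plasma membrane, and those of clade IV sit in the tonoplast, the membrane of the vacuole, and carry fructose. Sucrose leaving leaf cells through clade III proteins is taken up by the phloem. Sugars stored in the vacuole help to protect leaf cells in the cold. HY5 has been linked in light-grown shoots to the expression of the sucrose efflux genes SWEET11 and SWEET12, of which SWEET11 was measured.

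Of the 9 transporters, 1 passed the test and was lower in hy5-1, namely SWEET1 of clade I. None of the other 8 passed (limma adjusted p from 0.106 for SWEET11 to 0.838 for SWEET7). At an unadjusted limma p under 0.05 there were 2 of 9, SWEET1 and SWEET11, beside 36.3% of all named loci. The test was limma's moderated test of the mean ratio against 0, with Benjamini-Hochberg adjustment over all 7234 loci and a threshold of 0.05. Over all named loci 17.2% passed this threshold, 7.88% higher and 9.29% lower in hy5-1. So 1 of 9 is no more than the share in either direction and near the share called lower. The median of the 9 means was -0.03, beside 0 over all named loci. Each transporter had a single named feature, so each ratio comes from a single probe.

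**Figure D1:**
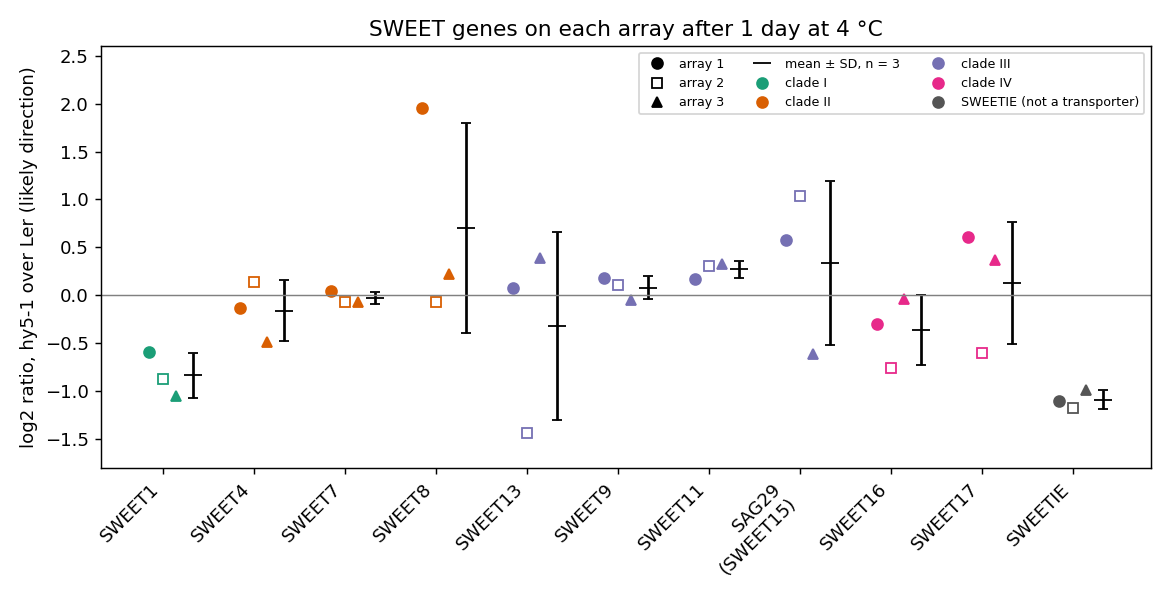
Log2 ratio of hy5-1 over Ler (vertical axis) for the 9 SWEET transporters, SAG29 (SWEET15) and SWEETIE (horizontal axis), coloured by clade, with a symbol for each array and the mean ± SD over 3 arrays in black. SWEET1 and SWEETIE lie below 0 on all 3 arrays, SWEETIE with little spread. SWEET8 is high on array 1 alone and SWEET13 is low on array 2 alone.

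SWEET1 (AT1G21460, chromosome 1, 7511750 to 7513481 in TAIR10.1), a glucose carrier of the plasma membrane, had ratios of -0.59 on array 1, -0.87 on array 2 and -1.05 on array 3. All 3 values were below 0. The mean was -0.84 ± 0.23 (SD, n = 3), a 1.79-fold lower level in hy5-1, with a limma adjusted p of 0.0219 and a 95% interval from -1.15 to -0.52. Of all named loci, 95.2% had a smaller absolute mean. The call was lost without replicate 1 (limma adjusted p = 0.185) and without replicate 3 (adjusted p = 0.184), where limma called 0 genes of all 7234, with 1613 and 1585 at an unadjusted p under 0.05. Without replicate 2 the mean was -0.82 with an adjusted p of 0.0385. When the arrays were brought to a common median absolute deviation (scaled arrays), the adjusted p of SWEET1 was 0.0507, and with an unmoderated statistic it was 0.188. In RNA of many cells, fewer cells of a type and less RNA per cell cannot be told apart.

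Clade II had 3 measured members of 5, and 0 passed. SWEET4 (AT3G28007), a hexose carrier, had -0.13, 0.14 and -0.49 on arrays 1, 2 and 3. Its sign differed between arrays, and its mean was -0.16 ± 0.32 (SD, n = 3). SWEET7 (AT4G10850) had 0.04, -0.07 and -0.07, the smallest spread of the 9 transporters. Its 95% interval of -0.27 to 0.20 corresponds to a level in hy5-1 between 0.832 and 1.15 times that in Ler. SWEET8 (AT5G40260), known also as RPG1 for the ruptured pollen grains of its mutant, had 1.96, -0.07 and 0.22. Its mean of 0.70 ± 1.10 (SD, n = 3) was the highest of the 9 and rested on array 1, since without that array it was 0.08. The limma adjusted p of SWEET8 was 0.285. In the grid of table rows assumed here, the 8 spots around that of SWEET8 on array 1 had a median ratio of -0.03.

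Clade III had 3 members measured by the rule and 4 with SAG29, and 0 of these 4 passed. SWEET11 (AT3G48740, chromosome 3, 18052466 to 18054832), which exports sucrose for phloem loading, had 0.17, 0.31 and 0.33 on arrays 1, 2 and 3. All 3 were above 0, close together, with a mean of 0.27 ± 0.09 (SD, n = 3). This 1.21-fold difference did not pass over all genes (limma adjusted p = 0.106), with an unadjusted p of 0.0336 and a 95% interval from 0.03 to 0.51. Under the likely reading of the sign this interval, not adjusted for the number of genes, lay above 0, at 1.02 to 1.42 times the level in Ler.

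SWEET13 (AT5G50800), a sucrose carrier, had 0.08, -1.44 and 0.39. Array 2 stood far below the others, and the mean of -0.32 ± 0.98 (SD, n = 3) turned to 0.24 without replicate 2. SWEET9 (AT2G39060), needed for nectar secretion, had 0.18, 0.11 and -0.05, near 0 throughout. SAG29, induced during leaf senescence and active in developing seeds, had 0.58, 1.04 and -0.61. Its array 2 was the highest and array 3 the lowest, and the mean of 0.34 ± 0.85 (SD, n = 3) did not pass (limma adjusted p = 0.525). SWEET11 and SWEET12, and likewise SWEET13 and SWEET14, are close in sequence. The probe sequences were not used here, and whether a probe also bound the other copy was not tested.

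Clade IV was measured in full, with 0 of 2 past the threshold. SWEET16 (AT3G16690), a tonoplast carrier whose level affects freezing tolerance, had -0.30, -0.76 and -0.04 on arrays 1, 2 and 3. All 3 values were below 0, but their mean of -0.37 ± 0.36 (SD, n = 3) did not pass (limma adjusted p = 0.17). Without replicate 2 the mean of SWEET16 was -0.17, and without replicate 3 it was -0.53. SWEET17 (AT4G15920), the fructose carrier of the tonoplast, had 0.61, -0.60 and 0.37, positive on arrays 1 and 3 and negative on array 2. Its mean was 0.13 ± 0.64 (SD, n = 3), and without replicate 2 it was 0.49 with a limma adjusted p of 0.0553. That fit leaves out the array of the opposite sign. The mean of SWEET17 was -0.115 without replicate 1 and 0.005 without replicate 3. SWEET17 exceeded SWEET16 on every array, by 0.91, 0.16 and 0.41. This was the only pair of 10 within a clade, SAG29 included, whose difference kept its sign on all arrays. An exact sign permutation test of such a difference on 3 arrays cannot go below a two-sided p of 0.25, which this pair reached. Any difference that keeps its sign on 3 arrays gives that value, so the test adds nothing to how this pair was picked.

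**Figure D2:**
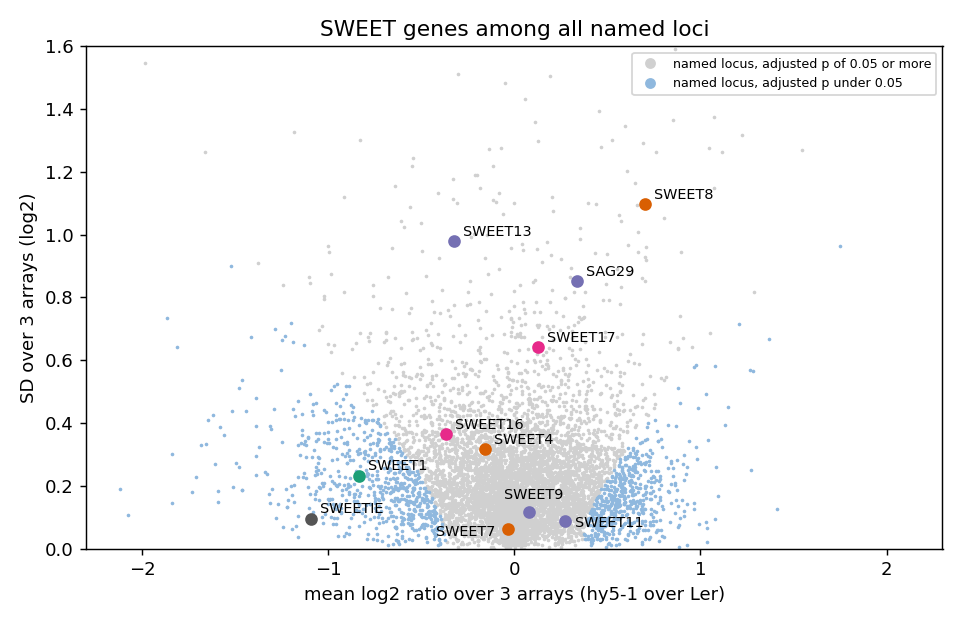
Mean log2 ratio of hy5-1 over Ler (horizontal axis) and SD over 3 arrays (vertical axis) for all named loci, with loci past the limma threshold in blue and the SWEET genes as large points coloured by clade (I green, II orange, III violet, IV pink, SWEETIE grey). SWEET1 and SWEETIE lie among the loci called lower, and SWEET8, SWEET13, SWEET17 and SAG29 lie above an SD of 0.4305; a few loci beyond the axes are not drawn.

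The transporters varied widely in their spread between arrays. The SD over 3 arrays ran from 0.06 for SWEET7 to 1.10 for SWEET8, with a median of 0.32 over the 9, beside 0.19 over all named loci. Of the 9, 3 had an SD above the 90th percentile of all loci, 0.431, namely SWEET8, SWEET13 and SWEET17, and SAG29 did too. That split was made after the values were seen. Of the 9, 33.3% (SWEET1, SWEET11 and SWEET16) had the same sign on all 3 arrays, beside 54.5% of all named loci.

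Ordered by their means, the 9 transporters ran SWEET1, SWEET16, SWEET13, SWEET4, SWEET7, SWEET9, SWEET17, SWEET11 and SWEET8, from -0.84 to 0.70. Of the 8 neighbouring pairs in that order, 7 differed by less than the SD of their difference over the arrays. The exception was SWEET9 over SWEET7, by 0.11 ± 0.08 (SD, n = 3). SWEET1 and the next gene, SWEET16, differed by 0.47 ± 0.48 (SD, n = 3), with SWEET16 the higher of the pair on each array.

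Array 2 stood apart from arrays 1 and 3 in SWEET13 and SWEET17. Taking array 2 minus the mean of the others, SWEET13 stood at -1.68, a departure lower than in all but 0.401% of named loci. SWEET17 stood at -1.09 and SWEET8 at -1.16, with 1.62% and 1.24% of loci lower, and in SWEET8 it was array 1 that was high. SAG29 departed upward, by 1.06, but there array 3 was the one farthest from the others. SWEET16 departed by -0.59, with 6.61% of loci lower, and SWEET4 by 0.45, with 88.9% lower. SWEET1, SWEET7, SWEET9 and SWEET11 departed by -0.05, -0.06, 0.05 and 0.06. Across all named loci, which share the arrays and are no replicates, Pearson's r of array 2 was 0.512 with array 1 and 0.504 with array 3, beside 0.759 for arrays 1 and 3. The part of the array in the values of SWEET13 and SWEET17 was not tested. In the same assumed grid, the spots around SWEET13 on array 2 had a median of -0.18 and those around SWEET17 a median of -0.02.

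**Figure D3:**
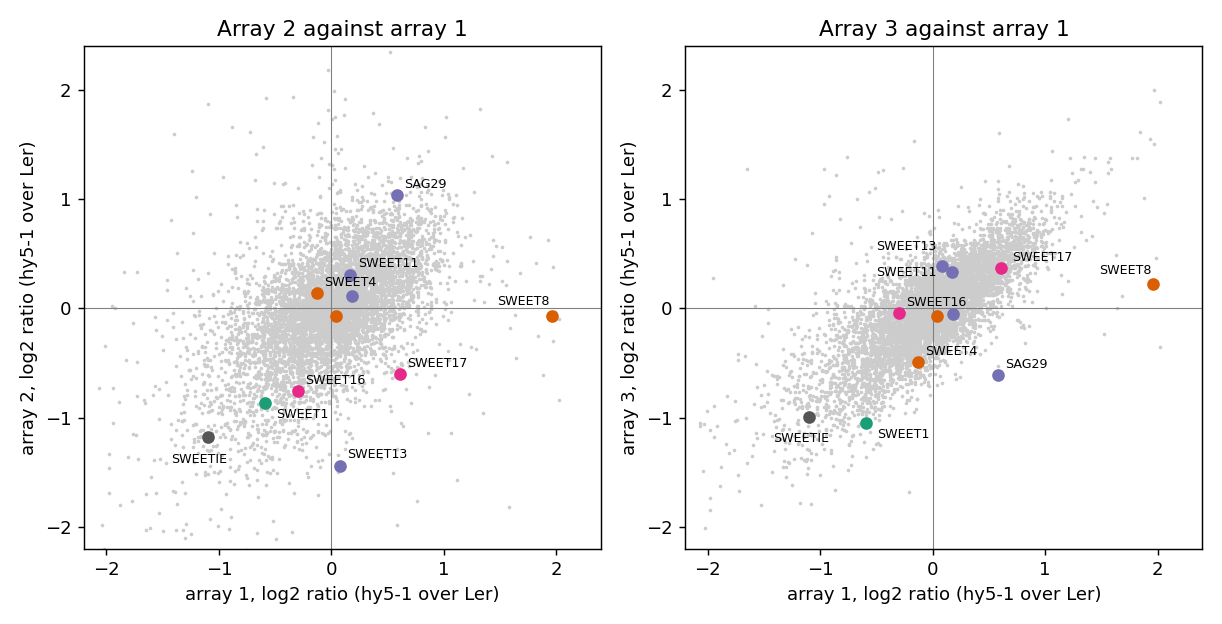
Log2 ratios of hy5-1 over Ler on array 2 (left) and array 3 (right) against array 1 for all named loci (grey) and the SWEET genes (coloured by clade: I green, II orange, III violet, IV pink, SWEETIE grey; SWEET7 and SWEET9, near 0, carry no label). SWEET13 and SWEET17 fall below 0 on array 2 but lie above 0 on arrays 1 and 3, while SWEET1 and SWEETIE lie in the lower left of both panels; a few loci beyond the axes are not drawn.

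SWEETIE encodes a very large protein that is no sugar carrier and whose mutant has altered carbohydrate metabolism. Its ratios were -1.10, -1.18 and -0.99, all well below 0. The mean was -1.09 ± 0.10 (SD, n = 3), a 2.13-fold lower level in hy5-1 with a limma adjusted p of 0.0168, and 98.4% of named loci had a smaller absolute mean. SWEETIE was the other called locus under the rule, so 2 of 10 symbols passed, beside 17.2% of all named loci in either direction. Both were lower, a direction in which 9.29% of all named loci passed. Whether these shares differ was not tested. Its call was also lost without replicate 1 (limma adjusted p = 0.185) and without replicate 3 (adjusted p = 0.184). With scaled arrays its limma adjusted p was 0.0494, the smallest of that fit. All 391 loci called there lay between that value and 0.05, so it gives SWEETIE no rank among them. With the unmoderated statistic the adjusted p of SWEETIE was 0.13. AT1G67130, which ends 222 bases before SWEETIE, had a mean of -0.06 ± 0.09 (SD, n = 3).

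**Figure D4:**
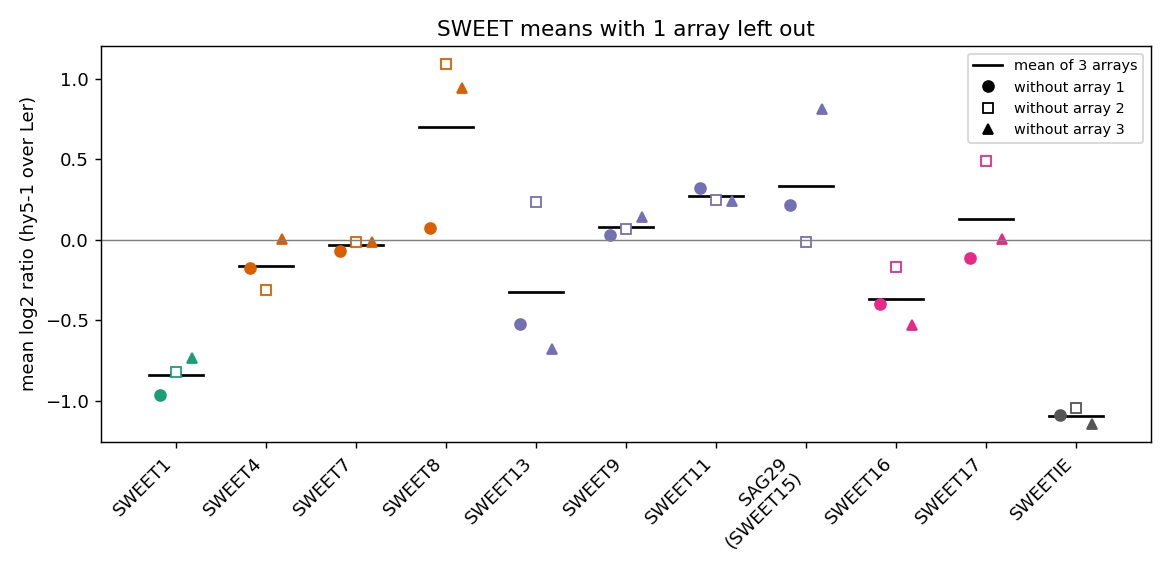
Mean log2 ratio of hy5-1 over Ler (vertical axis) for each SWEET gene (horizontal axis, coloured by clade) over 3 arrays (black line) and with each array left out in turn (symbols). The mean of SWEET1 stays between -0.96 and -0.73, that of SWEET8 drops to 0.075 without array 1, and that of SWEET13 turns positive without array 2.

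The genes with the pattern most like that of SWEET1, by Euclidean distance over the 3 arrays among 7233 other loci, were AT3G14560, AT1G22200 and AT1G03030. Their distances were 0.0616, 0.103 and 0.14. AT3G14560 had -0.65, -0.88 and -1.06 on arrays 1, 2 and 3. For SWEET8 the nearest were AT1G28375, AT1G02813 and AT5G59845, at 0.245, 0.427 and 0.492. AT1G28375 had 1.99, -0.03 and 0.46, highest on array 1 as was SWEET8. These loci were picked for closeness on these same values, so the likeness follows from the choice. 

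Other sugar transporters were less well covered, with 7 of 42 listed loci measured. Of these 7, 1 rose, 0 fell and 6 did not pass, with a median of the means of -0.01, beside 0 over all named loci. Over all named loci 17.2% passed and 7.88% rose, and 1 of 7 is near the first share. SFP2 (AT5G27360), a sugar-porter family member, had 0.65, 0.37 and 0.63 and rose 1.46-fold in hy5-1, at 0.55 ± 0.16 (SD, n = 3; limma adjusted p = 0.0319). Without replicate 1 and without replicate 3 its adjusted p was 0.193 and 0.207, and with the unmoderated statistic 0.189. SFP1 (AT5G27350), at the neighbouring locus, had 0.17, -0.85 and 0.22, low on array 2 alone as in SWEET13 and SWEET17, and did not pass.

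The tonoplast monosaccharide transporters, which load sugars into the vacuole, had 3 measured members and 0 past the threshold. TMT1 had -0.07, -0.51 and 0.56, with a mean of -0.01 ± 0.54 (SD, n = 3). TMT2 had -0.51, 0.00 and 0.02, and TMT3 had -0.27, -0.04 and 0.11. No member kept a sign on all 3 arrays. The other 2 measured loci of the list, AT1G34580 and AT5G17010, had means of 0.08 and 0.09.

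Of 29 loci listed for sucrose synthesis and cleavage, 2 were measured, and 1 rose, beside 7.88% higher among all named loci, which a count over 2 loci cannot be set against. AT1G62660 had 0.36, 0.70 and 0.46, all above 0, and averaged 0.51 ± 0.17 (SD, n = 3; limma adjusted p = 0.0388). Its call was lost with each array left out (limma adjusted p from 0.0604 to 0.211), with scaled arrays (0.0907), with the unmoderated statistic (0.207) and with all features in 1 fit (0.0528). AT3G54270 had -0.15, -0.28 and -0.20, and did not pass (adjusted p = 0.17). The gene table gives neither locus a name.

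Markers of the tissues in which SWEET genes are active could hardly be read. Of 8 phloem and 6 flower markers, 0 had a named feature. Of 5 senescence markers SAG29 alone was measured, and of 6 root markers EXPA18 alone, an expansin of root hairs, at 0.06 ± 0.06 (SD, n = 3). The tissue makeup of the samples was therefore not tested.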

How the data were processed

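The deposited table gave a ratio per feature and array for 45220 features, taken as log2 because the values ran from -4.03 to 5.09. That range does not settle the base of the logarithm. The sources used here state neither the base and numerator nor the normalisation and scanner. Array medians were 0.01, 0 and 0, so the authors appear to have centred the deposited log2 values. Without intensities, signal over background is unknown, and the 3 arrays limit the precision. Gene names came from the platform annotation (7440 features, each with a single gene) and RefSeq's TAIR10.1 gene table, to which all matched. Feature numbers were turned into table rows by a grid formula of 266 columns and 170 rows, found earlier from these values. Every gene name rests on it. For 7 genes with 10 or more features, variance within a gene was 0.0866 of the total under the formula and 0.979 with numbers as given. The formula was found from these same values, so this check is not independent of it.

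Features were averaged per locus, and means tested against 0 with limma 3.58.1 in R 4.3.3 (2 residual and 3.04 prior degrees of freedom), adjusted by Benjamini-Hochberg over 7234 loci. The procedure was tested on simulated data. Named genes were the SWEET genes, called members of the sugar lists (or, with none called, the 2 largest), and 3 nearest loci for the highest and lowest transporter; other list members are named after their values were seen. Members and lists were chosen with earlier results of these data known.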

Additional observations from a re-analysis of the deposited data

How the results depend on the processing

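The 1242 loci past the threshold (570 higher, 672 lower) and the 2 SWEET symbols (0 higher, 2 lower) changed by less than 1.5 times with arrays centred on their medians, with robust moderation, features tested separately and all features in 1 fit. With scaled arrays they became 391 (166, 225) and 1 (lower), namely SWEETIE. The unmoderated statistic gave 3 (2, 1) and 0, and row numbers as given gave 491 (242, 249) and 0. A minimum absolute mean of 1 gave 151 (18, 133) and 1, again SWEETIE. SWEET1, with a mean of -0.84, was not called under that minimum. With an array left out, limma called 0 to 1380 loci (0 to 655 higher, 0 to 725 lower) and 0 to 2 SWEET symbols, both lower, with 0 in each count without replicate 1 and without replicate 3. Leaving out SWEETIE gave 1, an alternative chosen after seeing the data, and adding SAG29 changed nothing. With an array left out the mean of SWEET17 ran from -0.115 to 0.49, SWEET13 from -0.68 to 0.235, SWEET4 from -0.31 to 0.005, SAG29 from -0.015 to 0.81, SFP1 from -0.34 to 0.195, TMT1 from -0.29 to 0.245, TMT2 from -0.255 to 0.01, TMT3 from -0.155 to 0.035 and AT5G17010 from -0.05 to 0.26. Row numbers as given turned SWEET1 to 0.083, SWEET13 to 0.10, SWEET7 to 0.08, SWEET9 to -0.02, SWEET17 to -0.093 and SWEET11 to -0.24. They also turned TMT2 to 0.11, EXPA18 to -0.073 and TMT1 to 0.0067. Every direction rests on the formula, also where the sign was kept, since each gene name does. The cause of the other changes between settings was not tested. Both genotypes share each array, so the test of the ratios against 0 already compares them within each array. The design has 1 group of ratios, and no further pairing was possible.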
